A study of Homo sapiens with 30 samples.

Results

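NGFR, BDNF, NTRK2 and SORT1 are 4 of the 60675 genes counted in this study, and they were matched by symbol to the Ensembl identifiers of the count table. NGFR encodes the low-affinity neurotrophin receptor p75, BDNF a secreted neurotrophin, NTRK2 the tyrosine kinase receptor TrkB, and SORT1 sortilin, a sorting receptor that is also a co-receptor of p75. The set was chosen by their expression results in these same libraries, so levels and fold changes of the 4 genes are given as a description, with no test. NGFR, BDNF and SORT1 passed the filter on low counts, and NTRK2 did not.

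The data are RNA-seq libraries of SW1783, a human astrocytoma cell line, treated for 24 h with 70% ethanol extracts of herbal formulas. The treated groups were Bojungikgi-tang and Sayeok-tang with 3 libraries at each of 20, 100 and 500 µg/mL, Banhasasim-tang with 2 libraries at each dose, and Yijung-tang with 1 library at each dose. The vehicle group had 3 libraries and is labelled 0.1% DMSO, while the design text gives 2% DMSO. That text also makes the 20% inhibitory concentration the highest dose where it lies under 500 µg/mL, and every highest-dose library is labelled 500 µg/mL. No label says that libraries came from separate cultures, so the errors and p-values here measure only the spread between these libraries, which may be technical.

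Neurotrophins are made as precursors, cut by proteases, and bind Trk receptors as mature proteins. Precursor forms bind p75 together with sortilin family members, and p75 in turn is cut at the membrane by a metalloprotease and then by gamma-secretase. In the nervous system p75 is known from developing neurons, neural crest derivatives and glia after injury, and BDNF from activity-dependent signalling between neurons.

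The libraries held 28.01 to 59.9 M counts (M, 1e6), and values are CPM, counts per 1e6 after scaling by the TMM method. The vehicle libraries carry another label set (E1) than the treated libraries (14 and 15), so treatment and label set cannot be told apart in a comparison with vehicle. Label set 14 holds Banhasasim-tang and Yijung-tang, and 15 holds Bojungikgi-tang and Sayeok-tang. Formula and label set thus cannot be told apart between Banhasasim-tang and Bojungikgi-tang or Sayeok-tang. A comparison of 500 against 20 µg/mL in a formula holds no vehicle library and stays within the same label set. Among 10 astrocyte markers, 7 stayed under 0.5 CPM in all 30 libraries, among them GFAP, S100B and AQP4, while GJA1, SOX9 and SLC1A3 averaged 243, 73.9 and 34.6 CPM in vehicle. Most of these markers were thus near absent from these cells, while GJA1, SOX9 and SLC1A3 were expressed.

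NGFR (ENSG00000064300, chromosome 17, 49495293 to 49515017, plus strand of GRCh38) was low in vehicle and stood on average higher at each higher dose in all 4 formulas, by far the most in Banhasasim-tang. In vehicle the 3 libraries had 1.2, 1.29 and 1.08 CPM, from 34, 49 and 31 counts. In Banhasasim-tang NGFR had 1.7 and 1.86 CPM at 20 µg/mL, 3.79 and 3.16 CPM at 100 µg/mL, and 24.3 and 26.3 CPM at 500 µg/mL, the last from 856 and 1310 counts. Both 500 µg/mL libraries lay far above every other library of the study.

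In Sayeok-tang NGFR had 1.44, 1.47 and 1.6 CPM at 20 µg/mL, 1.67, 1.77 and 2.05 CPM at 100 µg/mL, and 2.69, 3.24 and 3.51 CPM at 500 µg/mL. In Bojungikgi-tang it had 1.21, 1.41 and 1.61 CPM at 20 µg/mL, 1.54, 1.74 and 2.21 CPM at 100 µg/mL, and 1.92, 1.98 and 2.42 CPM at 500 µg/mL. The single Yijung-tang libraries had 1.31, 1.75 and 2.2 CPM at 20, 100 and 500 µg/mL. The 3 doses of Sayeok-tang did not overlap one another, whereas in Bojungikgi-tang 100 µg/mL overlapped both its neighbours. Taken by replicate number, NGFR in Bojungikgi-tang was higher at each higher dose in 3 of 3 numbers. Over all genes the replicate numbers do not pair the libraries, so this is a description only.

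**Figure D1:**
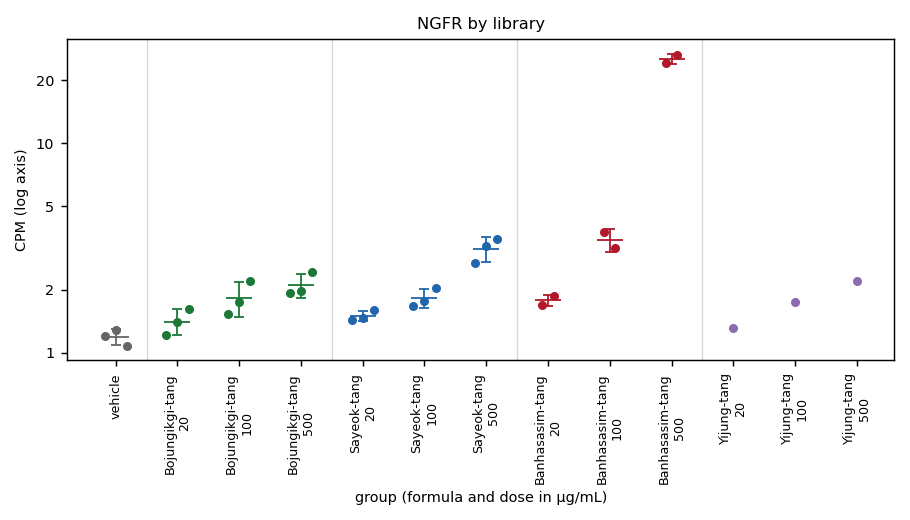
NGFR in CPM on a log axis, 1 point per library, by formula and dose in µg/mL; horizontal marks and bars are the mean and SD of groups with 2 or 3 libraries. The Banhasasim-tang 500 µg/mL libraries sit at 24.3 and 26.3 CPM, and no other library exceeds 3.79 CPM.

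At 500 µg/mL against vehicle, the log2 fold change of NGFR was 4.4 ± 0.14 (SE) in Banhasasim-tang, a fold of 21.1, and placed NGFR at rank 40 of the 19632 genes tested. It was 1.38 ± 0.15 in Sayeok-tang (2.6-fold) and 0.81 ± 0.16 in Bojungikgi-tang (1.76-fold). Against 20 µg/mL of the same formula, where no vehicle library enters, the log2 fold change at 500 µg/mL was 3.83 ± 0.14 in Banhasasim-tang, 1.05 ± 0.14 in Sayeok-tang and 0.57 ± 0.14 in Bojungikgi-tang. The difference in Banhasasim-tang was uneven over the dose steps, with a ratio of means of 1.95 for 100 over 20 µg/mL and 7.29 for 500 over 100 µg/mL.

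Set against the other formulas at 500 µg/mL, NGFR in Banhasasim-tang was higher than in Bojungikgi-tang by 3.59 ± 0.12 on the log2 scale and higher than in Sayeok-tang by 3.02 ± 0.12, a fold of 8.14. Banhasasim-tang also differs from both in label set, which cannot be told apart from formula here. Small differences were already seen at 20 µg/mL against vehicle, with log2 values of 0.57 ± 0.18 in Banhasasim-tang, 0.32 ± 0.17 in Sayeok-tang and 0.24 ± 0.17 in Bojungikgi-tang. The Bojungikgi-tang libraries overlapped vehicle and those of the other 2 formulas did not. In the order of the 13 group means, Banhasasim-tang at 100 µg/mL and Sayeok-tang at 500 µg/mL came after Banhasasim-tang at 500 µg/mL and overlapped each other, at 3.48 and 3.15 CPM.

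Mitochondrial ribosomal RNA also differed in Banhasasim-tang, but on average was not higher at 500 than at 100 µg/mL, as NGFR was. The mitochondrial ribosomal RNA MT-RNR2 averaged 33000, 89100 and 66800 CPM at 20, 100 and 500 µg/mL of Banhasasim-tang, against 8900 CPM in vehicle and 13100 to 14100 CPM in the other treated groups. MT-RNR2 was highest at 100 µg/mL, where NGFR averaged 3.48 CPM. MT-RNR1 averaged 4820, 16900 and 16800 CPM at 20, 100 and 500 µg/mL of Banhasasim-tang, against 701 CPM in vehicle. Its libraries at 100 and 500 µg/mL overlapped. With mitochondrial ribosomal RNA taken out before scaling, the Banhasasim-tang value of NGFR against vehicle moved by less than the spread between replicates.

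NGFR is a marker of neural crest and Schwann cells, so other markers of that class were examined. Their summed level over 7 genes was 5.81 to 6.06 CPM in Banhasasim-tang at 500 µg/mL, against 10.7 to 11.6 CPM in vehicle, and 4 of the 7 never exceeded 0.5 CPM. SOX10 and CDH19, which define the lineage, were at 0 in both Banhasasim-tang 500 µg/mL libraries. Summed levels of 10 astrocyte markers were 211 to 212 CPM there against 348 to 358 CPM in vehicle, of 7 neuronal markers 99.7 to 105 CPM against 184 to 189 CPM, and of 7 mesenchymal and pericyte markers 6780 to 7310 CPM against 8280 to 8670 CPM. The sum of 4 oligodendrocyte markers was 126 to 129 CPM against 154 to 163 CPM and was mostly CNP, which averaged 117 CPM there and 152 CPM in vehicle. The other oligodendrocyte markers did not follow it: MBP averaged 10.1 CPM against 6.89 CPM, OLIG2 0.719 CPM against 0.073 CPM, and MOG was at 0 in both groups. The part of these differences in the NGFR result was not tested, and in bulk RNA fewer cells of a type and less RNA per cell cannot be told apart. The antisense gene NGFR-AS1 had 3 and 2 counts in Banhasasim-tang at 500 µg/mL, a mean of 0.0627 CPM, and 0 counts in vehicle. These counts are too low to read. The library kit marks strand, and no source used here says whether the counting used it.

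BDNF (ENSG00000176697, chromosome 11, 27654893 to 27722058, minus strand) was lower at 500 µg/mL than in vehicle in all 4 formulas. Per kilobase of exon, BDNF averaged 5.65 CPM in Banhasasim-tang at 500 µg/mL and 7.18 CPM in vehicle, against 6.1 and 0.287 CPM for NGFR in the same groups. NGFR thus stood slightly above BDNF per kilobase in that treated group only, of the 13 groups. The window of the BDNF promoter that holds the bases TGACG, a short form of the cyclic AMP response element, is shown because this gene is known for regulation by CREB; it runs from 250 bases before to 50 bases after 1 of the RefSeq starts, at chr11:27701572-27701871 (GRCh38.p14, minus strand), and the capitals mark the match, which lies on the opposite strand.

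BDNF: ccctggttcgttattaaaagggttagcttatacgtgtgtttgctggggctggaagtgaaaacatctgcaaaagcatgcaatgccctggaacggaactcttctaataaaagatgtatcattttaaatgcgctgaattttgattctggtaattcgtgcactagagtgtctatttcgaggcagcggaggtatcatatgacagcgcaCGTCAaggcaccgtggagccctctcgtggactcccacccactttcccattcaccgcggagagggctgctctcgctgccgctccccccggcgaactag

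The table holds 5 BDNF windows, and 1 of them has a match to any of the motifs searched. The bases TGACG were found on either strand in 24.6% of 35116 such RefSeq windows, so the match describes the sequence and no more.

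In vehicle BDNF had 55.8, 52.9 and 57.9 CPM. In Banhasasim-tang it had 56.9 and 56.8 CPM at 20 µg/mL, 55.9 and 55.7 CPM at 100 µg/mL, and 43.6 and 43.9 CPM at 500 µg/mL. The level lay under vehicle at the highest dose there, and the 2 lower doses overlapped vehicle.

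In Bojungikgi-tang BDNF had 55.7, 55.8 and 57.2 CPM at 20 µg/mL, 52.4, 51.5 and 48.1 CPM at 100 µg/mL, and 42.1, 43.3 and 41.7 CPM at 500 µg/mL. In Sayeok-tang it had 55.9, 57.5 and 58.2 CPM at 20 µg/mL, 53.3, 50.6 and 51.6 CPM at 100 µg/mL, and 47.7, 47.3 and 45.9 CPM at 500 µg/mL. Yijung-tang had 57.1, 48.9 and 42.5 CPM at 20, 100 and 500 µg/mL. In these 3 formulas the level was lower at each higher dose, and the doses of the 2 replicated formulas did not overlap.

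At 500 against 20 µg/mL the log2 fold change of BDNF was −0.38 ± 0.05 in Banhasasim-tang, −0.41 ± 0.04 in Bojungikgi-tang and −0.28 ± 0.04 in Sayeok-tang. Against vehicle it was −0.34 ± 0.04 in Banhasasim-tang, −0.39 ± 0.04 in Bojungikgi-tang and −0.24 ± 0.04 in Sayeok-tang. NGFR and BDNF thus differed in opposite directions in each replicated formula. The order of the formulas in BDNF depended on the scaling: with library size alone, the change at 500 against 20 µg/mL was −0.45 in Banhasasim-tang, −0.35 in Bojungikgi-tang and −0.25 in Sayeok-tang. The antisense gene BDNF-AS, which overlaps BDNF, averaged 2.27 CPM in Banhasasim-tang at 500 µg/mL and 1.25 CPM in vehicle.

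SORT1 (ENSG00000134243, chromosome 1, 109309568 to 109397951, minus strand) was highest in vehicle, at 82.2, 79.9 and 80.7 CPM. In Banhasasim-tang it had 70.1 and 70.3 CPM at 20 µg/mL, 70.7 and 73.0 CPM at 100 µg/mL, and 60.8 and 58.5 CPM at 500 µg/mL. In Sayeok-tang it had 77.7, 72.2 and 70.2 CPM at 20 µg/mL, 71.8, 68.4 and 65.9 CPM at 100 µg/mL, and 66.6, 64.1 and 63.7 CPM at 500 µg/mL. Every treated library lay under every vehicle library, and the 2 Banhasasim-tang libraries at 500 µg/mL were the lowest of the study.

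In Bojungikgi-tang SORT1 had 71.7, 66.5 and 71.7 CPM at 20 µg/mL, 75.7, 74.5 and 73.4 CPM at 100 µg/mL, and 73.2, 71.3 and 71.5 CPM at 500 µg/mL, with no trend over dose. Yijung-tang had 74.0, 72.4 and 68.9 CPM at 20, 100 and 500 µg/mL. The log2 fold change at 500 µg/mL against vehicle was −0.44 ± 0.05 in Banhasasim-tang, −0.32 ± 0.04 in Sayeok-tang and −0.17 ± 0.04 in Bojungikgi-tang. Within formulas, at 500 against 20 µg/mL, it was −0.24 ± 0.05 in Banhasasim-tang, −0.18 ± 0.04 in Sayeok-tang and 0.04 ± 0.04 in Bojungikgi-tang, where the groups overlapped. The lower level at 20 µg/mL than in vehicle and the change of label set cannot be told apart.

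**Figure D2:**
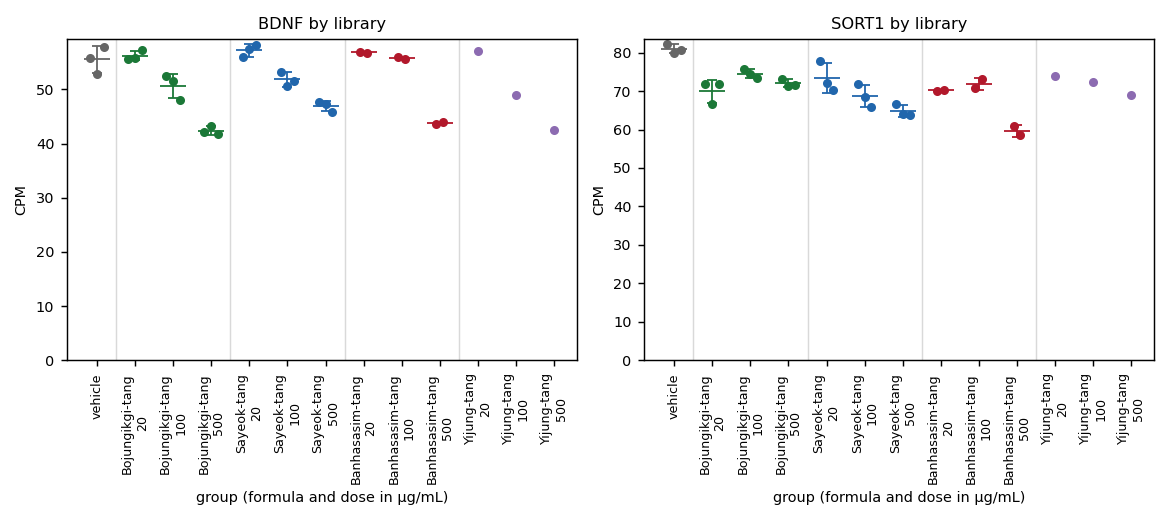
BDNF (left) and SORT1 (right) in CPM from 0, 1 point per library, by formula and dose in µg/mL, with mean and SD for groups of 2 or 3 libraries. BDNF lies between 41.7 and 47.7 CPM in the replicated groups at 500 µg/mL and between 52.9 and 57.9 CPM in vehicle; SORT1 is highest in vehicle.

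NTRK2 (ENSG00000148053, chromosome 9, 84668551 to 85027070, plus strand) was too low to read, with 0 to 2 counts in each of the 30 libraries. A count of 0 allows up to 3 counts, which is 0.0482 to 0.106 CPM depending on the library, for counting error only. No fold change is given for it.

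Groups that do not overlap were common among all genes. At 500 µg/mL against vehicle, all 3 tested members had groups that did not overlap in each replicated formula, where 67.1% of all tested genes did so in Banhasasim-tang, 50.7% in Sayeok-tang and 51.1% in Bojungikgi-tang. At 500 against 20 µg/mL, 3 members did so in Banhasasim-tang (71.2% of all genes), 3 in Sayeok-tang (35.6%) and 2 in Bojungikgi-tang (29.6%). At 20 µg/mL against vehicle, 2 members did so in Banhasasim-tang (49.8%), 2 in Sayeok-tang (41.8%) and 1 in Bojungikgi-tang (36.8%).

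The other genes of the pathway were taken from 8 lists of 113 genes without the 4 members, of which 104 were tested with edgeR's quasi-likelihood test and a Benjamini-Hochberg adjusted p under 0.05. In Banhasasim-tang at 500 µg/mL against vehicle 28 were higher and 40 lower, where 25.9% and 25.1% of all genes were called in these directions. In Sayeok-tang 20 were higher and 34 lower (18.8% and 19.4% of all genes), and in Bojungikgi-tang 17 and 37 (16.4% and 18.2%). Scaling by library size alone gave 20 higher and 53 lower in Banhasasim-tang.

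At 500 against 20 µg/mL, 26 listed genes were higher and 30 lower in Banhasasim-tang, where 22.3% and 21.3% of all genes were called. In Sayeok-tang 8 were higher and 24 lower (9.89% and 10.6% of all genes), which library size alone made 12 and 22. In Bojungikgi-tang 3 were higher and 19 lower (6.64% and 8.9% of all genes). Library size alone turned that last split to 14 higher and 10 lower, and a fit of the 2 groups alone left 11 genes in all. Without Bojungikgi-tang 500 µg/mL replicate 1, 2 or 3 the count was 12, 12 or 14 genes in all. The median log2 fold change of the tested list genes lay between −0.08 and 0.0 over these 6 comparisons, beside −0.0 to 0.01 for all genes.

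Among the ligands, NTF4, which binds TrkB, fell against vehicle by 0.92 ± 0.24 on the log2 scale in Banhasasim-tang (edgeR adjusted p = 0.00223) and by 1.03 ± 0.21 in Bojungikgi-tang (adjusted p = 0.000339), and averaged 1.15 CPM in Banhasasim-tang at 500 µg/mL against 2.19 CPM in vehicle. NTF3, the TrkC ligand, averaged 2.32 CPM in Banhasasim-tang at 500 µg/mL and 2.51 CPM in vehicle, and did not pass there (log2 −0.08 ± 0.18, edgeR adjusted p = 0.724). At 500 against 20 µg/mL it fell by 0.52 ± 0.14 in Sayeok-tang (adjusted p = 0.00605). VGF, a neurotrophin-induced secretory protein, had 26 and 37 counts in Banhasasim-tang at 500 µg/mL and 4, 9 and 5 counts in vehicle. It rose by 1.96 ± 0.32 on the log2 scale (adjusted p = 9.41e-06), and by 1.31 ± 0.31 in Bojungikgi-tang (adjusted p = 0.00161). In Sayeok-tang NTF4 (−0.68 ± 0.21, adjusted p = 0.00949) and VGF (1.02 ± 0.32, adjusted p = 0.0171) passed as well. The NTF4 call there was lost without Sayeok-tang 500 µg/mL replicate 2 (−0.43), and the VGF call without vehicle replicate 1 (0.87) or 3 (0.97) and with DESeq2 (1.04). At 500 against 20 µg/mL, where no vehicle library enters, neither gene passed in Bojungikgi-tang or Sayeok-tang. VGF was at 0.48 ± 0.25 in Bojungikgi-tang (edgeR adjusted p = 0.218) and −0.18 ± 0.25 in Sayeok-tang (adjusted p = 0.694). NTF4 was at −0.39 ± 0.21 in Bojungikgi-tang (edgeR adjusted p = 0.227) and 0.04 ± 0.21 in Sayeok-tang (adjusted p = 0.926). In Banhasasim-tang VGF passed at 0.96 ± 0.29 (edgeR adjusted p = 0.00919) but not without 20 µg/mL replicate 2 (0.92) or with DESeq2 (0.95). NTF4 passed there at −0.72 ± 0.25 (edgeR adjusted p = 0.0221) but not without 500 µg/mL replicate 2 (−0.64) or 3 (−0.83) or 20 µg/mL replicate 3 (−0.42).

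Of the receptor list, 7 of 10 genes were tested, and at 500 µg/mL against vehicle 1 was higher and 4 lower in Banhasasim-tang, 1 and 3 in Sayeok-tang, and 0 and 3 in Bojungikgi-tang. The shares of all genes called higher and lower were, in the same order, 25.9% and 25.1%, 18.8% and 19.4%, and 16.4% and 18.2%. NTRK3, the NTF3 receptor TrkC, averaged 0.228 CPM in Banhasasim-tang at 500 µg/mL and 0.354 CPM in vehicle and did not pass (adjusted p = 0.328). At 500 against 20 µg/mL NTRK3 was called lower in Bojungikgi-tang and Sayeok-tang. With 1 library left out its log2 change was −1.08 to −0.97 in Bojungikgi-tang, and the call was lost in 5 of 6 fits. In Sayeok-tang it was −1.34 to −0.61, and the call was lost in 3 of 6 fits. No library reached 1 CPM for NTRK3.

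TNFRSF19, a member of the same receptor superfamily as NGFR, was lower where NGFR was higher. It had 35.0 and 33.3 CPM in Banhasasim-tang at 500 µg/mL, 89.4 and 88.0 CPM at 20 µg/mL, and 114, 112 and 107 CPM in vehicle. Against vehicle it fell by 1.7 ± 0.04 on the log2 scale in Banhasasim-tang (edgeR adjusted p = 7.49e-22), by 1.14 ± 0.04 in Sayeok-tang (adjusted p = 1.51e-18) and by 0.89 ± 0.04 in Bojungikgi-tang (adjusted p = 6.89e-16). RTN4R, the Nogo receptor that signals with p75 in neurons, rose in Banhasasim-tang by 1.76 ± 0.29 against vehicle (adjusted p = 1.06e-05), to a mean of 1.64 CPM against 0.477 CPM. SORCS2, a sortilin relative that binds p75, fell there by 0.34 ± 0.08 (adjusted p = 0.000584).

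Among 13 tested genes of precursor processing, 4 were lower and 0 higher in Banhasasim-tang at 500 µg/mL against vehicle, 3 lower and 2 higher in Sayeok-tang, and 4 lower and 3 higher in Bojungikgi-tang. Of all genes, 25.1% were lower and 25.9% higher, 19.4% and 18.8%, and 18.2% and 16.4%, in the same order. PCSK1, a prohormone convertase, had 5.83 and 6.09 CPM in Banhasasim-tang at 500 µg/mL and 8.95 and 9.14 CPM at 20 µg/mL. It fell by 0.6 ± 0.13 on the log2 scale (edgeR adjusted p = 0.000427). In Bojungikgi-tang it had 17.3, 17.5 and 17.8 CPM at 500 µg/mL, against 9.71, 8.93 and 9.42 CPM at 20 µg/mL, and rose by 0.91 ± 0.09 (adjusted p = 7.23e-08). PCSK7, a convertase of the secretory pathway, fell in Banhasasim-tang by 0.41 ± 0.04 against vehicle (adjusted p = 1.93e-10).

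Of the 7 genes that cut p75, 3 were higher and 1 lower in Banhasasim-tang at 500 µg/mL against vehicle, beside 25.9% and 25.1% of all genes. ADAM17, the sheddase that releases the p75 ectodomain, averaged 74.7 CPM there and 44.3 CPM in vehicle, and rose by 0.75 ± 0.06 on the log2 scale (edgeR adjusted p = 5.42e-12). ADAM10, a related sheddase, fell by 0.37 ± 0.05 (adjusted p = 9.42e-07). It averaged 301 CPM in vehicle, and 260 and 234 CPM at 20 and 500 µg/mL of Banhasasim-tang. At 500 against 20 µg/mL its log2 change was −0.2 to −0.12 with 1 library left out, and the call was lost in 3 of these 4 fits. Of 14 intracellular partners of p75, 4 were higher and 4 lower in Banhasasim-tang at 500 µg/mL against vehicle, near the same 25.9% and 25.1% of all genes. SQSTM1, the adaptor p62, averaged 1470 CPM there and 492 CPM in vehicle, with a log2 change of 1.58 ± 0.05 (adjusted p = 1.98e-19), and it rose against vehicle in Sayeok-tang by 1.38 ± 0.05 and in Bojungikgi-tang by 0.74 ± 0.05 as well (adjusted p = 7.86e-18 and 3.69e-12).

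**Figure D3:**
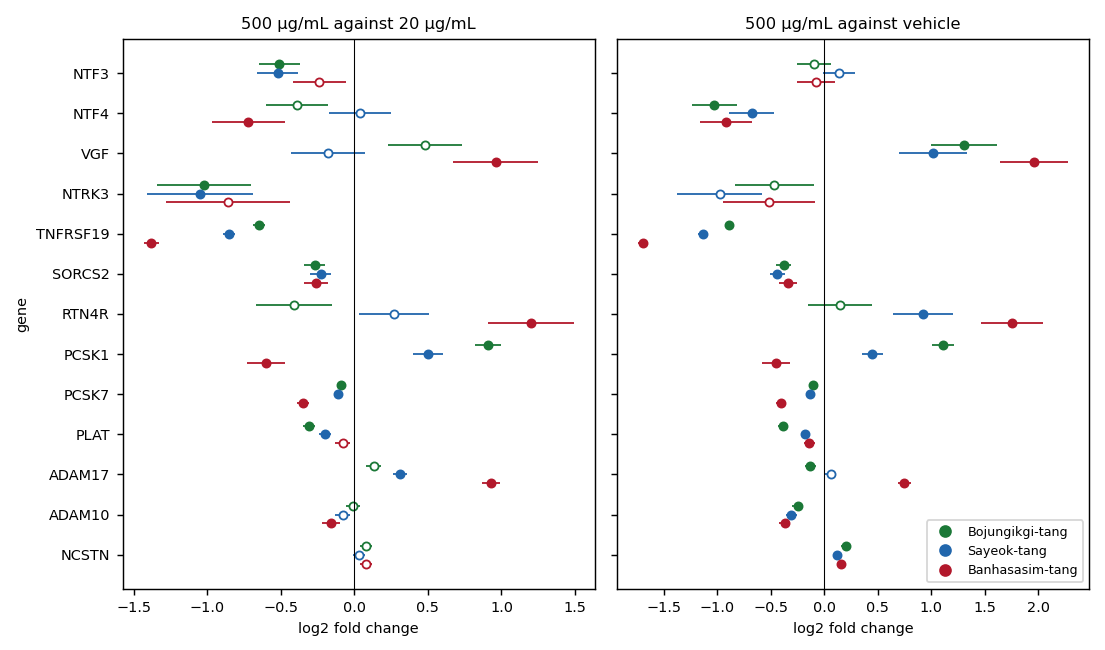
Log2 fold change of 13 named pathway genes at 500 µg/mL, against 20 µg/mL (left) and against vehicle (right), by formula. Bars are the SE; filled points passed an adjusted p of 0.05 and open points did not. TNFRSF19 lies at −1.38 for Banhasasim-tang, −0.85 for Sayeok-tang and −0.65 for Bojungikgi-tang on the left, and PCSK1 lies on opposite sides of 0 in Banhasasim-tang and Bojungikgi-tang.

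Of 35 genes of Trk receptor signalling, 11 were higher and 16 lower in Banhasasim-tang at 500 µg/mL against vehicle, 4 and 15 in Sayeok-tang, and 4 and 14 in Bojungikgi-tang. Of all genes, 25.9% were higher and 25.1% lower, 18.8% and 19.4%, and 16.4% and 18.2%, in the same order. At 500 against 20 µg/mL, where no vehicle library enters, 11 were higher and 9 lower in Banhasasim-tang, 2 and 3 in Sayeok-tang, and 1 and 3 in Bojungikgi-tang. The shares of all genes there were 22.3% and 21.3%, 9.89% and 10.6%, and 6.64% and 8.9%. The Bojungikgi-tang count was 0 to 7 genes in all with 1 library left out. PIK3R1, the regulatory subunit of PI3-kinase, fell in Banhasasim-tang at 500 µg/mL against vehicle by 1.02 ± 0.07 on the log2 scale (edgeR adjusted p = 4.49e-13). FRS3, an adaptor of Trk receptors, rose there by 1.03 ± 0.14 (adjusted p = 3.12e-07). Of 11 transcription factors known to act on BDNF, 2 were higher and 4 lower in Banhasasim-tang in that comparison, beside 25.9% and 25.1% of all genes. MEF2C fell by 0.76 ± 0.09 (adjusted p = 2.73e-08) and MEF2D rose by 0.49 ± 0.06 (adjusted p = 1.73e-07), both activity-regulated factors. Of 13 tested genes of other neurotrophic factors, 5 were higher and 6 lower in Banhasasim-tang at 500 µg/mL against vehicle, beside the same 25.9% and 25.1% of all genes. GFRA2, the neurturin co-receptor, fell by 1.61 ± 0.28 (edgeR adjusted p = 2.52e-05). The GFRA2 libraries of Banhasasim-tang at 500 µg/mL were apart, at 0.301 and 0.739 CPM against 1.31 to 1.71 CPM in vehicle, and the change was −2.32 without replicate 2 and −1.04 without replicate 3.

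The genes with the level pattern most like NGFR were found by the root mean square difference of log2 CPM, each gene centred on its own mean over the 12 treated groups, among the 13977 genes that averaged 1 CPM or more. They were ATF3 (0.166), a stress-induced transcription factor, BEX4 (0.166), DDIT3 (0.262), the stress-induced transcription factor CHOP, RAB39B (0.305), a small GTPase, and HKDC1 (0.308), a hexokinase family member. With the 9 treated groups of 2 or more libraries, 4 of the 5 stayed among the nearest. The likeness is a description of 12 means that share libraries and scaling. BEX4 reached the 1 CPM average only through Banhasasim-tang at 500 µg/mL, with 6.15 CPM there and 0.436 to 1.19 CPM in the other treated groups.

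ATF3 had 30.3 and 30.6 CPM in Banhasasim-tang at 500 µg/mL, against 2.3, 2.55 and 1.74 CPM in vehicle. DDIT3 had 289 and 306 CPM there, against 23.4, 24.0 and 23.9 CPM in vehicle. BEX4 had 6.25 and 6.05 CPM there, against 0.494, 0.394 and 0.349 CPM in vehicle. These genes were picked for having the pattern of NGFR, so a high level at 500 µg/mL of Banhasasim-tang restates how they were picked.

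**Figure D4:**
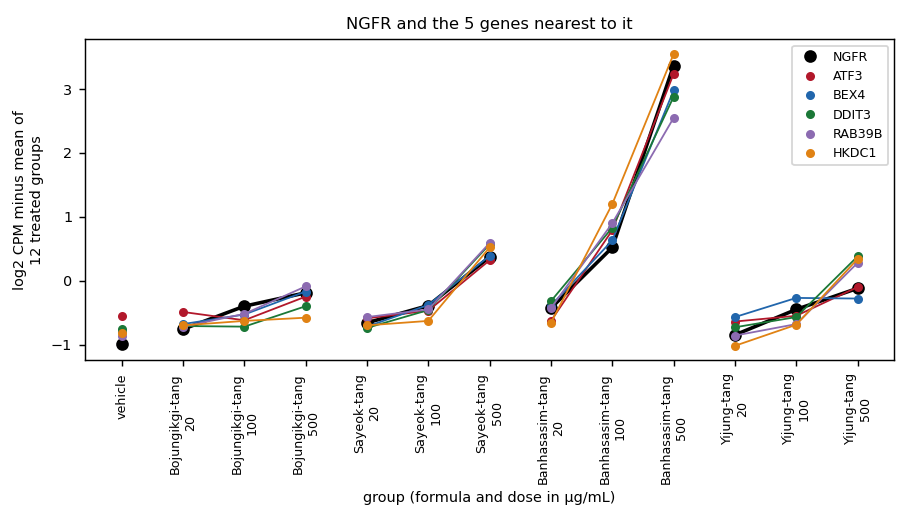
Mean log2 CPM of NGFR and the 5 nearest genes by group, minus each gene's mean over the 12 treated groups; lines join the doses of 1 formula and the vehicle point stands alone at the left. All 6 genes have their highest point at 500 µg/mL of Banhasasim-tang, which the choice of the 5 by likeness to NGFR brings with it.

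Promoter windows of the 3 nearest genes are shown because their level pattern is most like that of NGFR. Each runs from 250 bases before to 50 after a RefSeq start on GRCh38.p14, for ATF3 at chr1:212565157-212565456 (plus strand), for BEX4 at chrX:103214842-103215141 (plus strand) and for DDIT3 at chr12:57520465-57520764 (minus strand). Capitals mark a match to TGATGNAA, the composite element bound by CHOP and ATF4 family factors, or to TGACG, searched on both strands.

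ATF3: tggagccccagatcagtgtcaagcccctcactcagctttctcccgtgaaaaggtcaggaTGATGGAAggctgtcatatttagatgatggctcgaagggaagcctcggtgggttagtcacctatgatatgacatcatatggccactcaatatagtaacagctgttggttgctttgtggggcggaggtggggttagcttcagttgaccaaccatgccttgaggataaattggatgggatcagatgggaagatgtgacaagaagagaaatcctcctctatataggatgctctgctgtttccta
BEX4: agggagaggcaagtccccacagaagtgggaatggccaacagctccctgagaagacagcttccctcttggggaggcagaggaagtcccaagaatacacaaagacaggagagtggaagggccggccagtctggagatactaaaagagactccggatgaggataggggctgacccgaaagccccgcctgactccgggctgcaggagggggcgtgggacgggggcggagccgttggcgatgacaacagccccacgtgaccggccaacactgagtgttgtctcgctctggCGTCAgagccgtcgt
DDIT3: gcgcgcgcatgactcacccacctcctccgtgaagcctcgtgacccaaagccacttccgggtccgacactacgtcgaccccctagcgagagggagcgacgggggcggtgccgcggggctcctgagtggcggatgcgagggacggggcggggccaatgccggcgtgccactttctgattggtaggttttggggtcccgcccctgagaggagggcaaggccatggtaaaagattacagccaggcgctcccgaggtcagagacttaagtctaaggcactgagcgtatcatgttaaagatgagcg

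ATF3 held TGATGNAA at 191 bases before the start, BEX4 held TGACG on the opposite strand 35 bases after it, and this DDIT3 window held neither. The table holds 2 windows for each of these genes, and a match was found in 1 for ATF3, 2 for BEX4 and 0 for DDIT3. The 2 BEX4 windows overlap and hold the same site, and the 2 DDIT3 windows overlap almost in full. TGATGNAA was found in 3.62% of 35116 windows and TGACG in 24.6%, and the endoplasmic reticulum stress element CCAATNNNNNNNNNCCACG, found in 0.0769%, was in none of the windows shown. No printed window holds overlapping matches.

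The genes nearest to BDNF by the same measure were GAS6 (0.0526), a ligand of the TAM receptor kinases, LINC02582 (0.0619), a long non-coding RNA, CAP2 (0.0638), an actin regulator, EPHA2 (0.0643), an ephrin receptor, and FMN2 (0.0649), a formin. With the 9 replicated groups, 3 of the 5 stayed among the nearest. The likeness chose these genes, so their own fold changes are not given.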

How the data were processed

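RNA-seq of 30 libraries of SW1783 cells was used. The unit of the table that the authors deposited is expected counts for each gene, of which 9.36% to 11.1% in a library were not whole; these were rounded before testing. The tools listed in the submitters' processing notes, without an order, are RSEM 1.3.3, STAR 2.7.3a, Trim Galore 0.6.5 and FastQC 0.11.9, and the build is hg38. For the annotation release, nothing was given in the sources used here. An expected count splits reads between similar genes by a model, so a gene that shares sequence with a copy carries that uncertainty. Symbols were found for 56558 of 60675 identifiers (93.2%), and coordinates and exon lengths came from GENCODE v29.

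Groups came from the sample labels. Genes were filtered with filterByExpr, which left 19632, and scaled by TMM (edgeR 4.0.16, R 4.3.3). A model of 13 group means over all 30 libraries was fitted with glmQLFit, so groups shared the estimate of spread, and tested with robust glmQLFTest and Benjamini-Hochberg adjustment over all genes tested, with a threshold of 0.05. The fit gave 17 comparisons. The SE is the absolute log2 fold change over the square root of F and is approximate. The step was tested on simulated data.

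The members and the gene lists were chosen with earlier results of these data known. Named genes were the members, a fixed set that includes NTF3, NTF4, NTRK3 and VGF, up to 3 genes per list called in the most comparisons, and the 5 genes nearest to NGFR and to BDNF; some named by the rule appear only in counts, and some are not reported here. Alternatives were another scaling, no filter, DESeq2 1.42.0, only the groups compared, a replicate block and leaving out each library. Replicate pairs differed by more than counting noise (mean chi-square per gene 2.43 to 33.2 over 24 pairs), so none was counted as 1 library deposited again. Intervals and floors cover counting error only. Yijung-tang, with 1 library per dose, was described without a test. The windows of promoters came from RefSeq on GRCh38.p14; NGFR and RAB39B are not shown.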

Additional observations from a re-analysis of the deposited data

Results flagged for a closer look

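Differences between formulas in the direction of the dose change were seen for PCSK1 and MAPK8, in which every 500 µg/mL library lay on opposite sides of the 20 µg/mL libraries in the formulas compared. For PCSK1 the log2 change at 500 against 20 µg/mL was −0.6 in Banhasasim-tang, 0.91 in Bojungikgi-tang and 0.5 in Sayeok-tang, a call that was lost when the 2 Sayeok-tang groups were fitted alone. For MAPK8, the kinase JNK1, it was 0.1 in Banhasasim-tang, which did not pass (edgeR adjusted p = 0.128), −0.14 in Bojungikgi-tang and −0.17 in Sayeok-tang. The Bojungikgi-tang call for MAPK8 was lost without replicate 1 or 3 at 20 µg/mL (−0.13 and −0.12) and without replicate 2 or 3 at 500 µg/mL (−0.11 and −0.14). The difference between the dose changes was not tested. At 500 µg/mL, Banhasasim-tang against Bojungikgi-tang was −1.56 for PCSK1 and 0.27 for MAPK8 on the log2 scale (edgeR adjusted p = 1.12e-11 and 5.37e-05). The MAPK8 call was lost with scaling by library size alone (0.1). Banhasasim-tang and Bojungikgi-tang also differ in label set, so formula and label set cannot be told apart there.

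NGFR in the Yijung-tang libraries, which enter no test, was 1.31 CPM at 20 µg/mL, 1.75 CPM at 100 µg/mL and 2.2 CPM at 500 µg/mL. Each lay above the highest vehicle library, at 1.29 CPM. Groups held at most 3 libraries, so no single library was examined as an outlier.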

How the results depend on the processing

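Of 51 member fold changes, 26 were recomputed under the alternatives and none of these turned its direction. With library size alone, 5 of the 51 turned, none of them over 0.05 in size on the log2 scale; the largest was BDNF at 500 µg/mL in Banhasasim-tang against Bojungikgi-tang, at 0.05 and then −0.11. With all libraries kept, 169 recomputed values moved by less than the spread between replicates and 13 by more. Scaling by library size alone shifted every gene by −0.13 log2 in Banhasasim-tang at 500 µg/mL against vehicle and by 0.03 and 0.02 in Bojungikgi-tang and Sayeok-tang. It gave 4.27 for NGFR in Banhasasim-tang against vehicle, −0.47 for BDNF and −0.57 for SORT1. At 500 against 20 µg/mL it gave −0.45 for BDNF and −0.31 for SORT1 in Banhasasim-tang, −0.35 for BDNF in Bojungikgi-tang and −0.25 for BDNF in Sayeok-tang. It gave −0.13 for SORT1 in Bojungikgi-tang against vehicle, where no filter gave −0.14. BDNF in Banhasasim-tang at 500 against 20 µg/mL was −0.39 with DESeq2 size factors, with mitochondrial ribosomal RNA removed (chosen after seeing the data), with the groups compared alone and with DESeq2, and −0.39 to −0.37 with 1 library left out. Its replicates differ so little that a change of 0.01 exceeds their spread. NCSTN at 500 µg/mL in Banhasasim-tang against Sayeok-tang was 0.04 and turned to −0.11 with library size alone; this shift is of the size of the scaling difference itself.

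The number of listed genes called at 500 against 20 µg/mL in Bojungikgi-tang was 22, and 11 with the groups compared alone, and 12 to 25 with 1 library left out. NGFR at 500 µg/mL against vehicle was 4.33 to 4.46 in Banhasasim-tang with 1 library left out, 1.29 to 1.49 in Sayeok-tang and 0.7 to 0.88 in Bojungikgi-tang.

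Libraries with the same replicate number did not deviate together (median r 0 over 63 pairs, 3 of them over 0.1), so over all genes the numbers do not pair the libraries. For NGFR alone, the replicate numbers took the same rank order in 6 of 6 treated groups of 3 libraries, but not in vehicle. With the replicate block, NGFR against vehicle was 4.33, 1.39 and 0.82 in Banhasasim-tang, Sayeok-tang and Bojungikgi-tang, and the listed genes called were 69, 54 and 55, against 68, 54 and 54 without it. Depth limits NGFR in vehicle (31 to 49 counts), VGF, NTRK3, NTRK2 and NGFR-AS1.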
